A study of Mus musculus with 12 samples.

Results

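STAT5 binding was examined around 4 genes that govern cell proliferation: Ccnd1 and Ccnd2, which encode the D-type cyclins D1 and D2, Cdkn1a, which encodes the cyclin-dependent kinase inhibitor p21, and Pim1, which encodes a serine/threonine kinase. The members are the STAT5 regions, deposited as lists of genomic intervals, whose centre lies in a fixed window around each gene on mouse build mm9. The windows are 152.06 to 152.18 Mb of chromosome 7 for Ccnd1 (120 kb), 127.02 to 127.16 Mb of chromosome 6 for Ccnd2 (140 kb), and 29.18 to 29.29 Mb and 29.58 to 29.69 Mb of chromosome 17 for Cdkn1a and Pim1 (110 kb each). They hold 69 of the 156642 regions in the 3 lists used, namely 5 of 13278 in wild-type cells, 27 of 71561 in overexpression replicate 1 and 37 of 71803 in overexpression replicate 2. The rule uses the position of a region and no measured value, although the genes and windows were chosen with earlier results of these data known.

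The study used ChIP-seq, in which DNA bound by a protein is pulled down with an antibody and sequenced, to map STAT5 in embryonic fibroblasts of C57BL/6 mice, taken from fetuses of 12.5 to 13.5 days and used at passage 9 to 10. The wild-type group carries the normal Stat5 genes (1 library with an anti-STAT5 antibody). The overexpression group, labelled STAT5A-Stat5-/-, lacks endogenous Stat5 and overexpresses STAT5A (2 libraries, the second titled as a repeat). Cells of both groups spent 5 h without serum before 45 min of growth hormone at 1 µg/ml, and each list was assigned to a library so treated. For replicate 2 this assignment is inferred. The labels name its list beside an unstimulated library of the repeat as well, and its track name carries GH. The sources used here do not give the vector that carries STAT5A, its promoter, whether the cells are a clone or whether the replicates are separate cultures. The other 9 of 12 libraries, among them all IgG controls, the Stat5-null cells and the unstimulated cells, have no list analysed here, so no background level stands beside these regions. The lists give positions only, without a height, score, p-value or read depth, and the files used hold no expression values.

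STAT5A and STAT5B are transcription factors that wait in the cytoplasm until a receptor-bound Janus kinase phosphorylates them. They then enter the nucleus as dimers and bind a short palindrome, TTCNNNGAA. D-type cyclins pair with the kinases CDK4 and CDK6 and carry cells from G1 towards S phase, p21 restrains cyclin-dependent kinases and is the classical target of p53, and PIM1 promotes survival and cell cycle progression. All of these genes have been described as STAT5 targets in cells that respond to cytokines.

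Every one of the 4 windows held at least 1 region in every list. Wild-type cells had 1 region at Ccnd1, 1 at Ccnd2, 2 at Cdkn1a and 1 at Pim1. Replicate 1 of the overexpressing cells had 3, 3, 7 and 14 regions at the same loci, and replicate 2 had 11, 6, 7 and 13. The means of the replicates were 7.0 ± 5.66 at Ccnd1, 4.5 ± 2.12 at Ccnd2, 7.0 ± 0.0 at Cdkn1a and 13.5 ± 0.707 at Pim1 (SD, n = 2). Pim1 held the most regions in each replicate, whereas Ccnd1 was level with Ccnd2 in replicate 1 and came next after Pim1 in replicate 2. With 1 wild-type library the genotypes were not tested against each other.

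**Figure D1:**
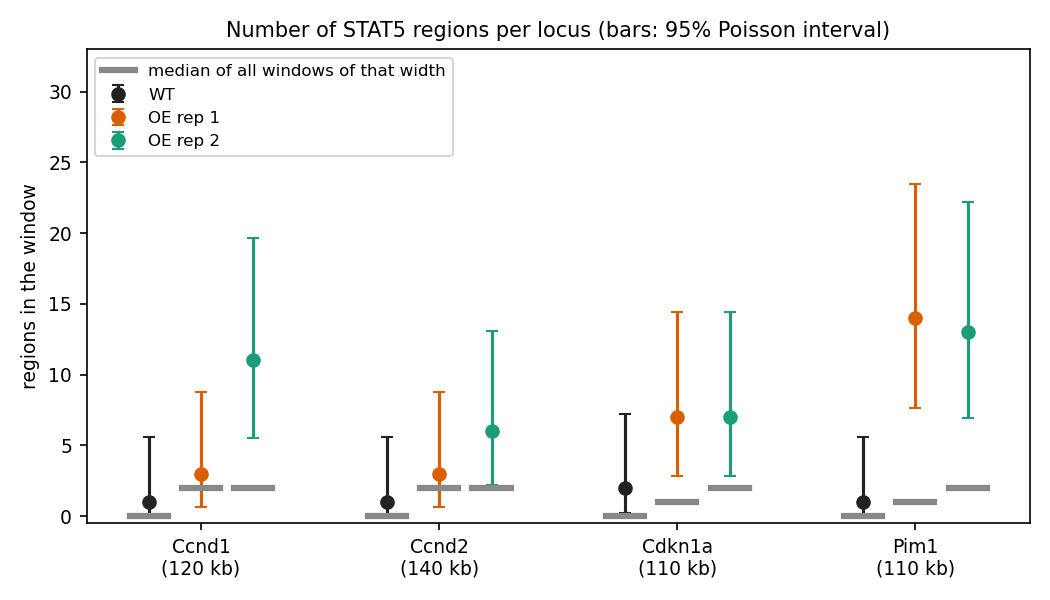
Number of STAT5 regions (vertical axis) in the window of each gene (horizontal axis) in wild-type cells (WT) and in each replicate of the overexpressing cells (OE). Bars are 95% Poisson intervals, which cover counting error only, and grey marks are the median over all windows of the same width. Wild type has 1 or 2 regions at each locus, and Pim1 has 14 and 13 in the overexpressing cells.

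The ratio to wild type was set beside that of the whole lists. Over the 4 loci replicate 1 had 5.40 times as many regions as wild type, with an exact 95% interval of 2.05 to 18 from counting error, against 5.39 times over the whole lists. For replicate 2 the ratio was 7.40 (interval 2.90 to 24.1), against 5.41. By locus, the ratios in replicates 1 and 2 were 3.0 and 11 at Ccnd1, 3.0 and 6.0 at Ccnd2, 3.5 and 3.5 at Cdkn1a, and 14.0 and 13.0 at Pim1. Each rests on 1 or 2 wild-type regions. In a further comparison just the 13278 widest regions of each overexpression list were kept, as many as wild type has. This cut is by width, although the lists differ in how often neighbouring regions lie close together, as described below. At Ccnd2 no excess was left, with 0 and 1 regions in replicates 1 and 2 against 1 in wild type. At Cdkn1a replicate 1 kept 3 against 2, whereas replicate 2 had 1. Ccnd1 then had 2 in each against 1, and Pim1 had 6 and 5 against 1. No interval was computed for these reduced lists. With the full lists, the intervals of the Pim1 ratios of 14.0 and 13.0 reached down to 2.13 and 1.95. They so include the whole-list ratios of 5.39 and 5.41. A gain at these genes beyond that of the genome was thus not shown with so few regions. The intervals treat regions as independent, although many lie close together, and they hold no spread between wild-type libraries. The part that library depth, which is unknown, has in these numbers was not tested.

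To place the counts, the genome was divided into adjoining windows of the same widths. A wild-type region was present in 38.5% of 120 kb windows, 42.6% of 140 kb windows and 36.3% of 110 kb windows. At least 1 region of replicate 1 was present in 63.0%, 65.4% and 61.4% of them, and of replicate 2 in 64.7%, 67.2% and 63.5%. The single wild-type regions at Ccnd1, Ccnd2 and Pim1 are thus a common count for windows of their size. As many as the 2 wild-type regions at Cdkn1a were found in 12.4% of windows. At Ccnd1, 42.9% of windows held 3 or more regions in replicate 1, and 6.13% held 11 or more in replicate 2. At Ccnd2 the shares were 46.8% for 3 or more and 28.6% for 6 or more. At Cdkn1a, 7 or more regions were found in 16.0% and 16.1% of windows. Pim1 stood highest of the 4, with 2.39% of windows holding 14 or more regions in replicate 1 and 2.49% holding 13 or more in replicate 2. The windows include gaps in the assembly, which lowers all these shares somewhat.

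**Figure D2:**
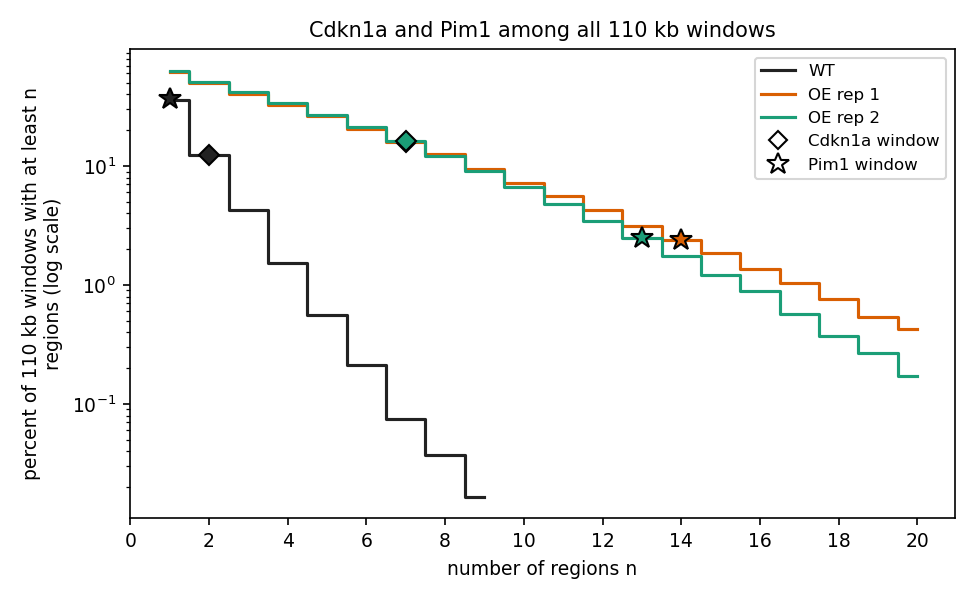
Percent of 23971 windows of 110 kb (vertical axis, log scale) that hold at least n regions (horizontal axis) in each list, with the Cdkn1a (diamonds) and Pim1 (stars) windows marked. The Pim1 stars of the overexpressing cells lie at 2.39% and 2.49%, the Cdkn1a diamonds at 16.0% and 16.1%, where the symbols of both replicates coincide.

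At Ccnd1, the gene of cyclin D1, 1 site was found in all 3 lists. It lay at chr7:152127533-152128050 in wild type (518 bp), chr7:152127383-152128040 in replicate 1 (658 bp) and chr7:152127383-152128130 in replicate 2 (748 bp). The wild-type region was covered by replicate 2 in full and by replicate 1 over 508 of its 518 bp. Its summit, the position of the highest signal as the authors' list gives it, was 50 bp from the replicate 1 summit and 41 bp from the centre of the replicate 2 region. No other wild-type region at the 4 loci matched the overexpressing cells as closely.

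A further Ccnd1 site, 21642 bp from the wild-type region, was present in each overexpression replicate but absent from the wild-type list, at chr7:152149693-152150340 (648 bp) and chr7:152149712-152150425 (714 bp). The third region of replicate 1, 298 bp wide, had no counterpart, and neither did 9 of the 11 regions of replicate 2. Those 9 were narrow, from 186 to 354 bp, whereas the 2 shared ones measured 748 and 714 bp. A wide region more readily has 1 bp in common with another, so the definition of sharing itself favours such a contrast. Replicate 1 contributed 21.4% of the 14 overexpression regions (exact 95% interval 4.66 to 50.8%), and the mean of 7.0 describes neither replicate. With only the regions at least as wide as the median of their list, replicate 2 had 2 regions here. Just beyond the upper edge of the window, at 0.401 kb in replicate 1 and 0.323 kb in replicate 2, each list had another region that the rule leaves out.

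Ccnd2, the gene of cyclin D2, was the locus where wild-type and overexpression regions did not meet. Its wild-type region, at chr6:127091433-127091671, was the narrowest of the 5 at 239 bp, and 88.4% of the wild-type list is at least as wide. The nearest region of replicate 2 ended 7688 bp away and that of replicate 1 began 13311 bp away. The overexpression replicates had 2 sites in common. The broader one, at the lower edge of the window, measured 498 bp at chr6:127022593-127023090 in replicate 1 and 781 bp at chr6:127022384-127023164 in replicate 2. The other, at chr6:127104983-127105220 (238 bp) and chr6:127104958-127105228 (271 bp), had centres 8.5 bp apart. The remaining region of replicate 1 measured 269 bp and the 4 remaining regions of replicate 2 measured 225 to 413 bp. Narrowing the window by 20 kb on each side removed the edge site and left 1 region in replicate 1, and widening it gave 2 regions in wild type.

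At Cdkn1a, the gene of p21, the wild-type regions lay towards the lower edge of the window, 4.3 and 13.7 kb from its start. The broader one, at chr17:29193374-29194063, measured 690 bp and is among the widest 1.17% of the wild-type list. Both overexpression replicates had a region there, at chr17:29193143-29193910 (768 bp) in replicate 1 and chr17:29193157-29193696 (540 bp) in replicate 2. These were displaced towards lower coordinates. The replicate 1 summit lay 300 bp below that of wild type, and the wild-type summit fell outside the replicate 2 region, 279 bp from its centre. The other wild-type region, at chr17:29184043-29184550 (508 bp), shared 151 bp with a 262 bp region of replicate 2 and lay 8592 bp from the nearest region of replicate 1. Both wild-type regions dropped out when the window was narrowed by 20 kb on each side, which left 4 regions of replicate 1 and 3 of replicate 2. Widening it gave 11 in replicate 2.

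Of the 7 regions each replicate had at Cdkn1a, 3 were shared. Beside the site just described these were at chr17:29194843-29195331 in replicate 1 (489 bp), with 284 bp in replicate 2, and at chr17:29227473-29227820 (348 bp), with 484 bp in replicate 2. The widest region of replicate 2 here, 977 bp at chr17:29231970-29232946, was not shared. It began 638 bp above the end of a pair of replicate 1 regions (729 and 289 bp, with 11 bp between them). Replicate 1 also had a 638 bp region at chr17:29215733-29216370 that lay 11070 bp from any region of replicate 2. So the replicates had equal numbers at Cdkn1a but not the same positions. Of the bases covered in replicate 1, replicate 2 covered 34.4% at Cdkn1a, 80.2% at Ccnd1, 73.2% at Ccnd2 and 69.3% at Pim1, against 43.2% over the whole list. Of the bases covered in replicate 2, replicate 1 covered 36.9%, 30.9%, 31.7% and 58.4% at these loci, against 42.0% over the whole list.

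RefSeq gives 2 start sites for Cdkn1a. Their promoter sequences (250 bases before to 50 after the start) are shown because the palindrome bound by STAT5 is made of the half-sites TTC and GAA, here in capitals. They come from RefSeq on build GRCm38.p6, whose coordinates cannot be set beside the mm9 positions above, so which region lies at which promoter was not analysed here.
Cdkn1a promoter at chr17:29090729-29091028 (GRCm38.p6, + strand): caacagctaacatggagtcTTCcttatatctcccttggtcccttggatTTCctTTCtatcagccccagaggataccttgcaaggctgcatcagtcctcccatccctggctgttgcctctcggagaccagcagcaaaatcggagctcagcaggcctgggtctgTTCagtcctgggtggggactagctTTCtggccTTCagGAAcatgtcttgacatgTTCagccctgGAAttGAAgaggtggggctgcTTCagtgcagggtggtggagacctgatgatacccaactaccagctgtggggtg
Cdkn1a promoter at chr17:29093519-29093818 (GRCm38.p6, + strand): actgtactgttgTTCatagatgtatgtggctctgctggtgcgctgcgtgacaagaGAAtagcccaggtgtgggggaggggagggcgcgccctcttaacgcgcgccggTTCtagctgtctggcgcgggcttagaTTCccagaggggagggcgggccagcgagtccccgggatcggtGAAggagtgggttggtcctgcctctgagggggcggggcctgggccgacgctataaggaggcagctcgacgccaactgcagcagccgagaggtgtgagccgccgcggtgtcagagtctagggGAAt
The first holds 8 TTC and 3 GAA, the second 3 of each. In neither does a TTC stand 3 bases before a GAA, which is what TTCNNNGAA requires.

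Pim1 had the densest binding of the 4 loci in the overexpressing cells. Regions covered 7.46 kb of its window in replicate 1 and 8.84 kb in replicate 2, or 8.15 ± 0.979 kb (SD, n = 2), against 0.438 kb in wild type. The means were 2.88 ± 1.81 kb at Ccnd1, 1.67 ± 0.933 kb at Ccnd2 and 3.30 ± 0.163 kb at Cdkn1a (SD, n = 2 each). Pim1 had the largest covered length of the 4 in each replicate. An SD of 2 libraries does not measure how far loci differ, and no test was run. Of the 14 Pim1 regions of replicate 1, 9 lay within 14.4 kb, from 29593513 to 29607910 of chromosome 17. The stretch was picked as the 15 kb span of the window with the most replicate 1 regions, so its replicate 1 number is high by choice. Replicate 2 had 5 regions in it, as many as in its own densest 15 kb span, and wild type had none. How often 15 kb spans elsewhere in the genome hold as many was not analysed.

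The broadest regions of all members lay in that stretch, 1798 bp at chr17:29606095-29607892 and 1402 bp at chr17:29596252-29597653 in replicate 2, which are among the widest 0.0989% and 0.499% of that list. Replicate 1 had 3 regions (629, 429 and 608 bp) under the first and 2 (869 and 388 bp) under the second. The other shared sites of the stretch were at chr17:29595273-29595630, chr17:29602313-29603031 and chr17:29604043-29604430 in replicate 1, each with 1 counterpart in replicate 2. The region at chr17:29593513-29594010 (498 bp) was without one.

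The lists differ in how often neighbouring regions lie close together. Whether close regions are parts of a single broad signal cannot be seen, as the lists give positions only. In replicate 1, 4 of the gaps between neighbouring regions of the Pim1 window were under 100 bp (11, 51, 11 and 11 bp), and in replicate 2 none was. Over the whole lists such gaps make up 20.1% of all gaps in replicate 1 but 1.38% in replicate 2, and the wild-type share is 2.54%. With regions less than 100 bp apart joined, an alternative chosen after seeing the data, Pim1 had 10 regions in replicate 1 and 13 in replicate 2. In lists joined in that way, 3.24% of 110 kb windows held at least 10 regions in replicate 1 and 2.30% held at least 13 in replicate 2.

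The wild-type region at Pim1, chr17:29625913-29626350 (438 bp), lay 18002 bp above the end of the dense stretch. It shared 298 bp with an 899 bp region of replicate 1, chr17:29626053-29626951, whose summit was 425 bp higher. Replicate 2 came within 32 bp of the wild-type region but did not overlap it. Its regions were at chr17:29626383-29626709 (327 bp) and chr17:29626884-29628054 (1171 bp). Both overlapped the replicate 1 regions there, so the regions of the 3 lists form a chain of 2142 bp. Above the chain replicate 1 had 2 further regions of 648 and 358 bp and replicate 2 had 2 of 320 and 408 bp, none of them shared. Between the chain and the dense stretch, replicate 2 had 3 regions of 228 to 430 bp that replicate 1 lacked. At the lower edge of the window a narrow site was found in both replicates (309 and 247 bp). Narrowing the window by 20 kb on each side left 9 regions in replicate 1.

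The 2 RefSeq promoters of Pim1 are shown in the same way, with each TTC and GAA in capitals.
Pim1 promoter at chr17:29490535-29490834 (GRCm38.p6, + strand): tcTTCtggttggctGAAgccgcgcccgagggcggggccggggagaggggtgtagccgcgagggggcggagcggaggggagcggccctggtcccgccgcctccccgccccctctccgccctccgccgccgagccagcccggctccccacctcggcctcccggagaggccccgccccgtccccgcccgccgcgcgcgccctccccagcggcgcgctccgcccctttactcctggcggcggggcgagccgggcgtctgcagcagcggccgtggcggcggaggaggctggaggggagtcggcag
Pim1 promoter at chr17:29492835-29493134 (GRCm38.p6, + strand): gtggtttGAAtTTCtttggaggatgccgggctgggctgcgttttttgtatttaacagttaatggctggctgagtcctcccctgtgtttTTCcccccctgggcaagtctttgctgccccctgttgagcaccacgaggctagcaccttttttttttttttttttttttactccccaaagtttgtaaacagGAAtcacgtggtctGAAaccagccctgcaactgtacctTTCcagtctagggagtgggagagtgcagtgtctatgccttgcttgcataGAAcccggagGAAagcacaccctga
The first, 81.3% G and C, holds 1 TTC and 1 GAA. The second holds 3 and 5. Neither contains TTCNNNGAA.

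RefSeq promoters were at hand for 2 of the 4 genes, Cdkn1a and Pim1, and none was printed for Ccnd1 and Ccnd2. Among 21 other cell cycle genes listed for comparison (cyclins, cyclin-dependent kinases, their inhibitors, Rb1, E2f1, Trp53, Mdm2 and the kinases Pim2 and Pim3), 17 had 20 promoters, and 0 of these held TTCNNNGAA. Of all 32851 promoter sequences of 300 bases, 8.30% held it. The palindrome reads the same on both strands. With 1 more base between the half-sites, the counts were again 0 of 4 and 0 of 20, against 6.95% of all promoters. A missing match says only that these letters are not in these short windows.

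**Figure D3:**
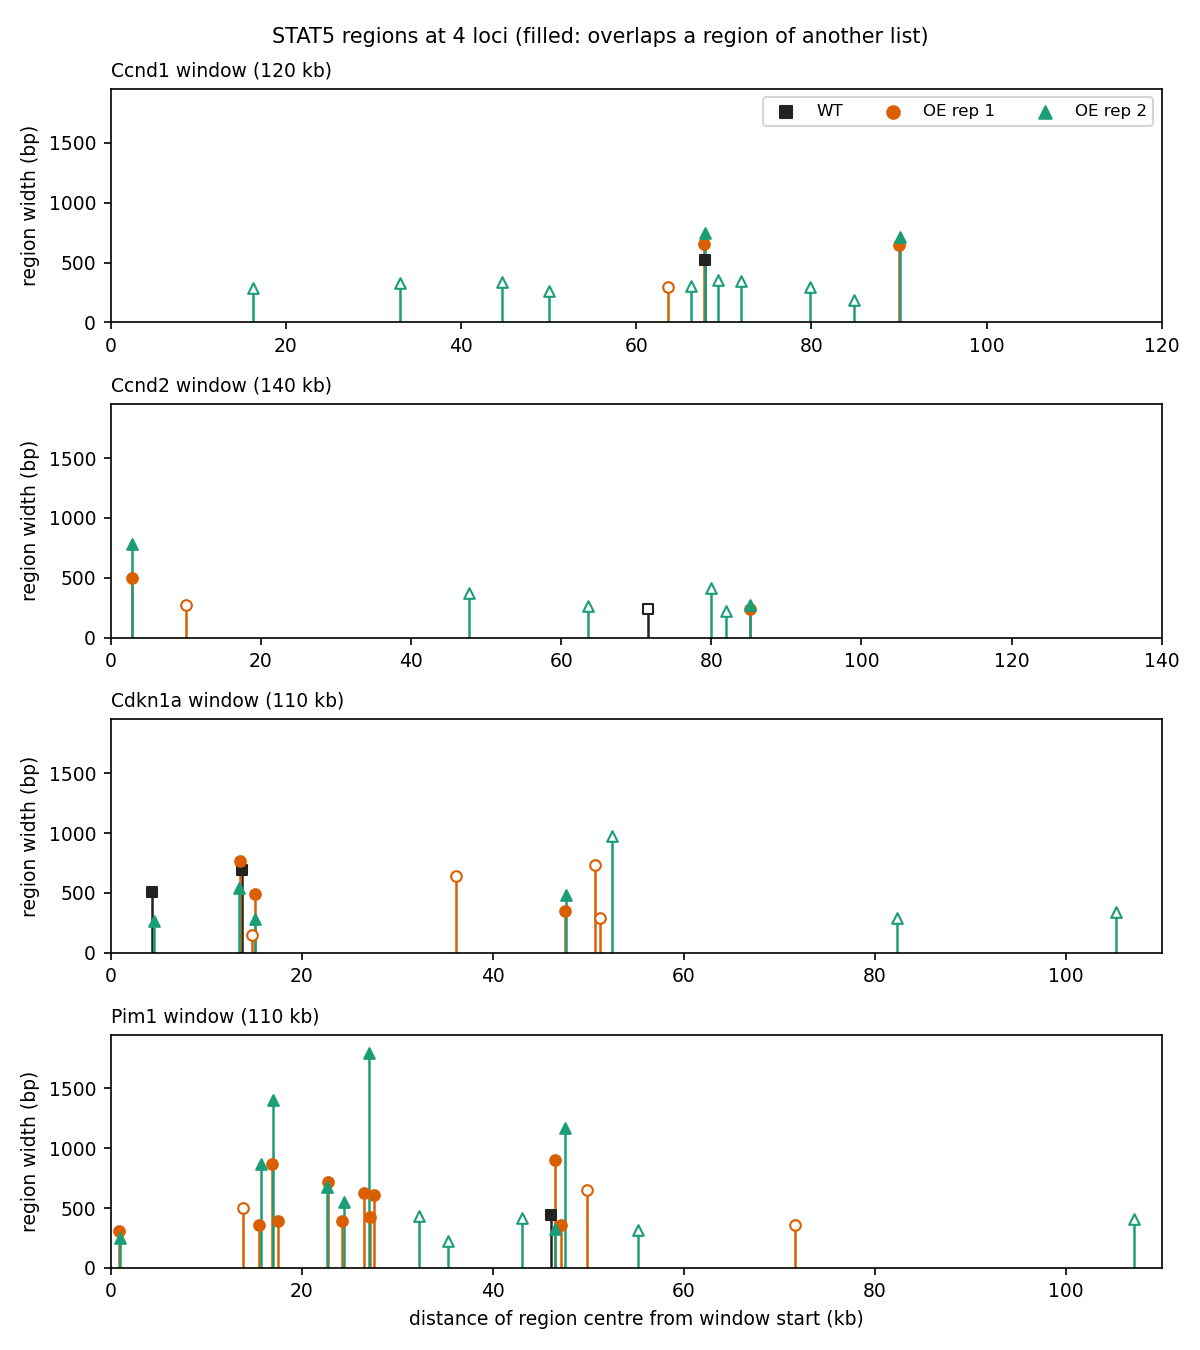
Regions along each window, with the distance of the region centre from the window start in kb (horizontal axis) and the region width in bp (vertical axis). Squares are wild type (WT), circles and triangles overexpression (OE) replicates 1 and 2, and filled symbols overlap a region of another list. At Ccnd1 the narrow replicate 2 regions are all open, and at Pim1 filled symbols crowd between 15.5 and 27.6 kb.

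Each window may hold parts of other genes. In the gene order of GRCm38, the nearest protein-coding neighbours are LTO1 and Tpcn2 for Ccnd1, Tigar and Parp11 for Ccnd2, Srsf3 and Rab44 for Cdkn1a, and Fgd2 and Tmem217 for Pim1. The noncoding gene Trp53cor1, known as a p53-induced transcript, lies next to Cdkn1a. Which of these genes a region lies in, or closest to, was not analysed here, as no annotation of mm9 was used. The windows of Cdkn1a and Pim1 are 290 kb apart on chromosome 17. Between them lay 5 wild-type regions, 11 of replicate 1 and 24 of replicate 2, or 1.72, 3.79 and 8.28 per 100 kb. The Pim1 window held 0.909, 12.7 and 11.8 per 100 kb, and the Cdkn1a window 1.82, 6.36 and 6.36. Replicate 2 thus had more regions per 100 kb between the genes than at Cdkn1a, and replicate 1 fewer. The regions between the genes were not spread evenly. In the 110 kb next to the Pim1 window lay 4 of the 5 wild-type regions, 8 of the 11 of replicate 1 and 15 of the 24 of replicate 2.

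The 4 windows were also compared with the 5 windows of equal width on each side. Pim1 had more regions than all 10 of its neighbours in replicate 1, where they held 0 to 10, and was reached by 1 of 10 in replicate 2, where they held 2 to 15. That window adjoins Pim1 on the Cdkn1a side, and holds 15 regions of replicate 2, 8 of replicate 1 and 4 of wild type. Widening the Pim1 window by 20 kb on each side changed its wild-type number from 1 to 4. At Cdkn1a 1 of 10 neighbouring windows in replicate 1 and 2 of 10 in replicate 2 reached the 7 regions. The 1 in replicate 1, which is also 1 of the 2 in replicate 2, overlaps the Pim1 window and contains its dense stretch. At Ccnd1 5 and 1 of 10 reached its counts of 3 and 11, and at Ccnd2 2 and 1 of 10 reached 3 and 6.

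Over all loci, 4 of the 5 wild-type regions (80.0%, exact 95% interval 28.4 to 99.5%) overlapped a region of at least 1 overexpression replicate, where 38.9% of the whole wild-type list did. Both replicates overlapped 2 of 5 (40.0%, interval 5.27 to 85.3%), the broad site at Cdkn1a and the site at Ccnd1, against 23.3% of the list. Replicates 1 and 2 taken singly each overlapped 3 of 5 (60.0%, interval 14.7 to 94.7%), against 32.3% and 29.9%. All these intervals include the value of the whole list, so a higher sharing at these genes was not shown. The shares also depend on what counts as shared: where the common part had to reach 50% of both regions, or the centres had to lie within 200 bp, 2 of 5 wild-type regions (40.0%) met at least 1 replicate and 1 of 5 met both. Seen from the overexpressing cells, 3 of 27 regions of replicate 1 (11.1%) and 3 of 37 of replicate 2 (8.11%) overlapped a wild-type region, against 6.55% and 5.25% of the lists.

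Summits could be compared where wild-type and replicate 1 regions overlapped. They were 50 bp apart at Ccnd1, 300 bp at Cdkn1a and 425 bp at Pim1. In these 3 pairs the wild-type summit lay inside the replicate 1 region. Of the 3 wild-type regions that replicate 2 overlapped, the one at Ccnd1 had its summit inside the replicate 2 region and the 2 at Cdkn1a did not.

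**Figure D4:**
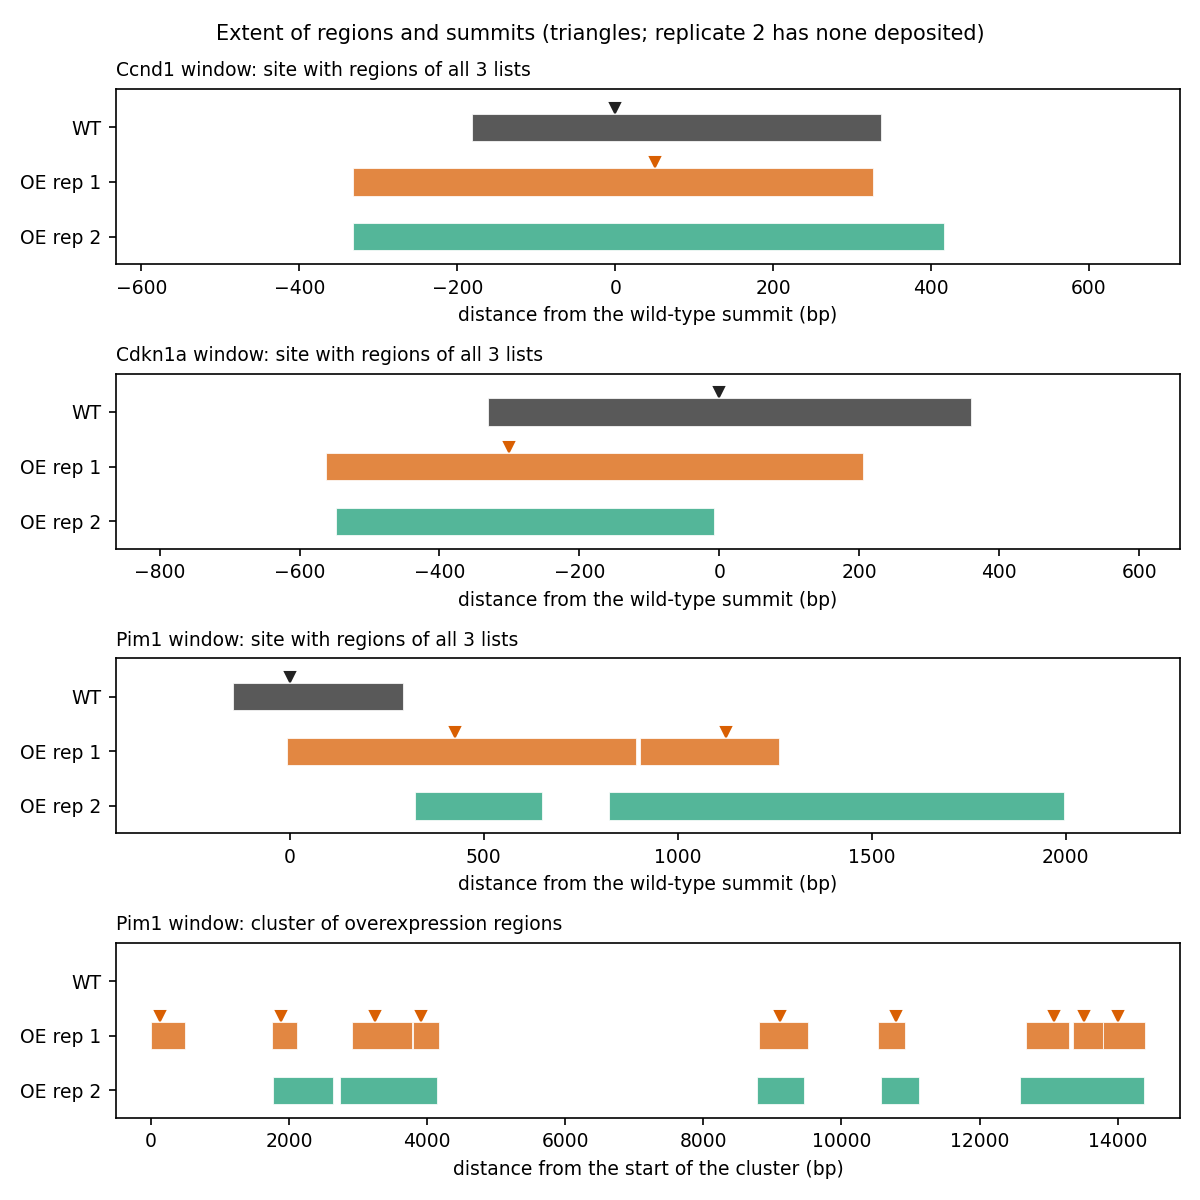
Extent of the regions, drawn to scale in bp, at the sites with all 3 lists (distance from the wild-type summit) and in the dense stretch of the Pim1 window (distance from its start). Bars are regions of wild type (WT) and of each overexpression (OE) replicate, and triangles are summits, which replicate 2 lacks. The summits of wild type and replicate 1 are 50 bp apart at Ccnd1, 300 bp at Cdkn1a and 425 bp at Pim1.

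Between the overexpression replicates, 18 of 27 replicate 1 regions (66.7%, interval 46.0 to 83.5%) overlapped replicate 2, against 51.9% of the whole list. In the other direction 15 of 37 (40.5%, interval 24.8 to 57.9%) overlapped replicate 1, against 43.1%. By locus the replicate 1 shares were 2 of 3 at Ccnd1, 2 of 3 at Ccnd2, 3 of 7 at Cdkn1a and 11 of 14 at Pim1. Those of replicate 2 were 2 of 11, 2 of 6, 3 of 7 and 8 of 13. These numbers count regions less than 100 bp apart singly, and Pim1 in replicate 1 has several. When the overlap had to reach 50% of both regions, the share of replicate 1 was 40.7%.

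Joined where they overlapped, the regions of the 3 lists formed 46 sites, 12 at Ccnd1, 8 at Ccnd2, 11 at Cdkn1a and 15 at Pim1. Of these, 3 drew on all lists (counting the chain at Pim1), 11 on both replicates only, 9 on replicate 1 only and 21 on replicate 2 only. The other two were the wild-type regions at Ccnd2, alone, and at the edge of the Cdkn1a window, with replicate 2. Pim1 held 6 of the 11 sites common to both replicates only and 1 of the 3 in all lists, and Ccnd1 held 9 of the 21 seen in replicate 2 alone. The whole lists were not joined into sites in this way, so no share over the genome stands beside these counts. By region, 51.9% of the whole replicate 1 list overlapped replicate 2, and 43.1% of the whole replicate 2 list overlapped replicate 1. Sites of a single replicate are thus common in both lists.

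Widths were the remaining measure of size. The 5 wild-type regions measured 239, 438, 508, 518 and 690 bp, a median of 508 bp against 379 bp in the whole list. In replicate 1 the median of the 27 was 489 bp (range 149 to 899 bp), against 398 bp, and 15 of 27 exceeded the list's median. In replicate 2 it was 344 bp (range 186 to 1798 bp) for 37 regions, against 378 bp, and 16 of 37 exceeded it. The replicates thus differed from their lists in opposite directions. Regions of replicate 2 that replicate 1 shared had a median of 678 bp (n = 15), those it did not share 326 bp (n = 22). Shared regions of replicate 2 had the higher median at each of the 4 loci. In replicate 1 the medians were 494 bp (n = 18) and 358 bp (n = 9), but the loci differed. At Pim1 the shared regions of replicate 1 had the lower median, 429 bp (n = 11) against 498 bp (n = 3), and at Cdkn1a the medians were 489 bp (n = 3) and 464 bp (n = 4). Over the whole lists the medians of shared and unshared regions were 468 and 329 bp in replicate 2 and 458 and 348 bp in replicate 1. Sharing needs just 1 bp in common, a definition that favours wide regions.

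**Figure D5:**
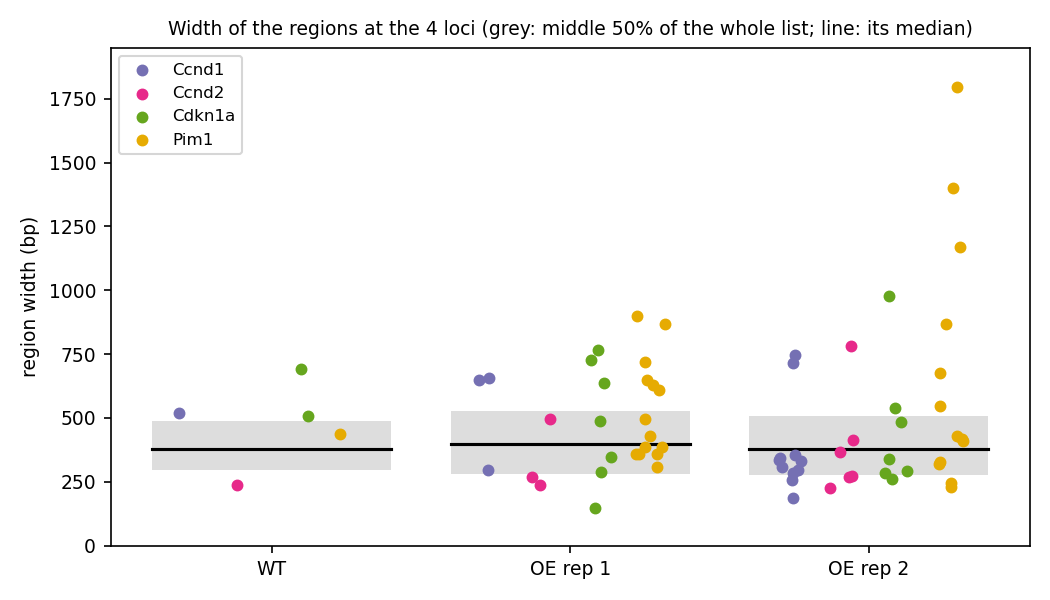
Width in bp (vertical axis) of every region at the 4 loci in wild type (WT) and overexpression (OE) replicates 1 and 2, coloured by locus. Grey bars span the middle 50% of each whole list and the line is its median (379, 398 and 378 bp). The 3 widest points of replicate 2, at 1798, 1402 and 1171 bp, are at Pim1.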

How the data were processed

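The data are region lists from STAT5 ChIP-seq of stimulated mouse embryonic fibroblasts, 1 wild-type and 2 overexpression libraries. Groups come from the sample titles. The deposited values are positions in bp (start, end and, except in replicate 2, a summit) on mm9, per the labels, with no score. In the deposited list of replicate 2 the region names begin with MACS. The sources used here do not give the aligner, controls, thresholds, versions or the other lists' caller, so lists may differ for reasons of calling. They do differ in form. In the gene windows all replicate 1 regions, and all wild-type regions but 1, have start positions with the same last digit. Those of replicate 2 vary. The SDs over the replicates therefore span lists of different form. The part that calling has in them was not tested. The labels name the list of replicate 2 beside an unstimulated library of the repeat as well, and it was assigned to the stimulated one because its track name carries GH. Depth is unknown.

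Members are regions with their centre in a window. Regions with 1 bp or more in common were called shared. Shares and ratios have exact (Clopper-Pearson) 95% intervals and counts exact Poisson intervals, for counting error only, and neighbouring regions are not independent. Adjoining windows covered the autosomes and chromosome X up to the last region. Promoters were matched by symbol. Named regions, by rule, were all wild-type regions, those in at least 2 lists and the widest of each list and locus. Others were named after their values were seen. Members, windows and gene lists were chosen with earlier results of these data known. Overlaps were tested on simulated data and equalled those of bedtools 2.31.1. The software was matplotlib 3.10.9, scipy 1.17.1, numpy 2.4.6, pandas 2.3.3 and Python 3.11.15. Alternatives were windows widened or narrowed by 20 kb, stricter lists and overlaps, joined regions and single replicates.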

Additional observations from a re-analysis of the deposited data

How the results depend on the processing

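Of 177 alternative values, 124 stayed as reported and 53 moved. Some of the 124 could not move. Wild type and replicate 2 had 0 gaps under 100 bp in the windows, so joining could not change their numbers. The summit distance from wild type to replicate 1 does not depend on replicate 2. The tally is therefore not a measure of stability. The limits were 1.5 times for numbers, the exact interval for shares, and the SD of the replicate medians (102.5 bp) for widths. For summit distances the limit was the SD of the 3 distances (190.9 bp). With so few wild-type regions these limits are wide, and a share that fell from 80.0 to 40.0% still counts among the 124. Windows widened by 20 kb on each side gave 9 wild-type regions in all, 2 at Ccnd2 and 4 at Pim1, and 11 at Cdkn1a in replicate 2. Windows narrowed by 20 kb gave 3 in wild type, with 0 at Cdkn1a, and 17 in replicate 1, with 1 at Ccnd2, 4 at Cdkn1a, 9 at Pim1 and a median width of 608 bp, and 3 at Cdkn1a in replicate 2, where the mean of the replicates was 3.5. Regions at least as wide as the median of their list left 0 in wild type at Ccnd2, 15 in replicate 1 (1 at Ccnd2, 4 at Cdkn1a, 8 at Pim1) and 16 in replicate 2 (2 at Ccnd1, 2 at Ccnd2, 3 at Cdkn1a), means of 2.0, 1.5, 3.5 and 8.5 at the 4 loci and median widths of 648 and 696 bp (mean 672 bp), as that choice implies. Overexpression lists reduced to their 13278 widest regions had 11 regions in replicate 1 (0 at Ccnd2, 3 at Cdkn1a, 6 at Pim1) and 9 in replicate 2 (2, 1, 1 and 5 at Ccnd1, Ccnd2, Cdkn1a and Pim1), means of 2.0, 0.5, 2.0 and 5.5, so that the mean fell below the 1 wild-type region at Ccnd2 and equalled the 2 at Cdkn1a, and median widths of 658 and 869 bp (mean 763.5 bp). The share of replicate 2 in replicate 1 was then 66.7%, and wild type made up 33.3% of wild-type plus mean overexpression regions, against 13.5%. Reciprocal overlap of at least 50%, like centres within 200 bp, lowered the wild-type regions shared with at least 1 replicate from 80.0 to 40.0% and with both from 40.0 to 20%, which is inside the wide exact intervals, and the median summit distance from 300 to 175 bp. Reciprocal overlap also gave 40.7% for replicate 1 in replicate 2, and joining regions under 100 bp apart a median width of 638 bp in replicate 1. Without the Pim1 locus 13 and 24 regions remained in replicates 1 and 2. Joining and the omission of Pim1 were chosen after seeing the data, as was the count of shared bases. Leaving out a replicate gave 3 to 11 regions at Ccnd1, 3 to 6 at Ccnd2, 7 at Cdkn1a and 13 to 14 at Pim1, 60.0% of wild-type regions shared, 11.9 to 15.6% for the wild-type part, and 344 to 489 bp for width. Except where a choice itself fixes the value, the cause was not tested. No paired analysis was possible because the groups compared have just 1 replicate number in common and no test was run. Unknown depth limits every number of regions.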
